A study of Mus musculus with 12 samples.

Results

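The 10 transcripts of the smooth muscle and actin contractile apparatus were followed in differentiating mouse embryonic stem cells (mESCs): Tagln, Cnn1, Cnn2, Acta1, Acta2, Actc1, Actg2, Myl9, Tpm1 and Tpm2. They were taken by gene symbol from a table of 24495 genes, as contractile genes of the kind controlled by serum response factor (SRF), and were chosen by their read counts on Day 4, which were higher in cathepsin L knockdown cells than in control cells. The Day 4 values are therefore described here without a test, as are the changes to Day 4, which use the same libraries. All 10 genes were among the 15532 genes that passed the filter on low counts. Actc1 passed only through its shCTSL Day 4 libraries (36 and 37 reads), which were used to choose it. It held 3 to 9 reads in each library at Days 0 and 2.

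CCE-Nanog-GFP mESCs, which carry a GFP reporter of Nanog, were transduced with lentivirus, selected with puromycin and sorted for GFP. The control line shSC, labelled WT and scr, carries a scrambled short hairpin RNA, and the knockdown line shCTSL, labelled CTSL KD, carries a hairpin against cathepsin L. Each line was sequenced as undifferentiated mESCs (Day 0), which grow with LIF, and as embryoid bodies kept in rotation without LIF in retinoic acid for 2 days (Day 2) or 4 days (Day 4). Both lines carry the reporter and a puromycin-selected vector, and a single hairpin line against cathepsin L was sequenced. Each of the 6 groups held 2 biological replicates, so 12 poly(A) RNA libraries were counted. The p-values measure the spread between replicate libraries, with an estimate for each gene that all groups share.

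Smooth muscle and other contractile cells generate force when myosin II pulls on actin filaments that are decorated with tropomyosin and regulated by calponin-type proteins. Many genes of this apparatus are transcribed under SRF, which binds a short sequence named the CArG box together with cofactors of the myocardin family (myocardin and the MRTF proteins). The same genes are known to be switched on in mesodermal derivatives, in cells that spread and build stress fibers, and in early differentiating cultures that contain no mature muscle.

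The CArG box, CC and GG around 6 letters that are A or T, was looked for in the RefSeq promoter table of GRCm38.p6, on windows of 300 bases that hold 250 bases before and 50 after a start. Both strands are read at once because the motif is its own reverse complement. A match was found in 535 of 32851 windows (1.63%), and in 4 of the 8 member genes that the table holds. Tagln and Actg2 are not among the 8. The members were taken as SRF-type genes, so their share is no test, and binding of SRF was not measured. The 4 stretches that fit the CArG box are shown, with up to 50 bases on either side and ending at the start at the latest. They lie at chr10:79988494-79988599 (plus strand), chr8:123894789-123894898 (minus strand), chr2:114052876-114052972 (minus strand) and chr2:156775253-156775362 (plus strand). Capitals mark the match.
Cnn2: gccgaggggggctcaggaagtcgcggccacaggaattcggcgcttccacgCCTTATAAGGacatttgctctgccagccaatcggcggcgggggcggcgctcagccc
Acta1: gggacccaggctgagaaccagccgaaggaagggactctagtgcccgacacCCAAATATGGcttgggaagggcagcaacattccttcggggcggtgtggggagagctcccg
Actc1: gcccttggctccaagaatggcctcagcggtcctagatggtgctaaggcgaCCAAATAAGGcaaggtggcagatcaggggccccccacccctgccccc
Myl9: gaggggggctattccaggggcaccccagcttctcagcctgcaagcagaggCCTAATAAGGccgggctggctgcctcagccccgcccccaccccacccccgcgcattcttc
The matches began 56 bases before the start in Cnn2, 73 in Acta1, 47 in Actc1 and 161 in Myl9, and the Cnn2 match contains the letters TATAA, so it overlaps the motif of a TATA box. The windows of Cnn1, Acta2, Tpm1 and Tpm2 hold no match to these letters.

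The genes lie apart on the mm9 genome, with Tagln (chr9:45737711-45744141, minus strand), Cnn1 (chr9:21903725-21914074, plus strand) and Tpm1 (chr9:66870397-66897213, minus strand) on the same chromosome. Acta1 lies at chr8:126415669-126418651, Acta2 at chr19:34315580-34329826, Actc1 at chr2:113873018-113879284 and Actg2 at chr6:83462899-83486259, all on the minus strand. Cnn2 lies at chr10:79451329-79458807 and Myl9 at chr2:156601156-156607394, both on the plus strand, and Tpm2 lies at chr4:43527583-43536637 on the minus strand. Their exonic lengths run from 1162 bases in Myl9 to 6485 bases in Tpm1, and 6 of the 10 genes are under 2000 bases.

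The libraries held 11171111 to 27155553 counted reads. Ctsl, the targeted gene, stood at 137 and 147 CPM (counts scaled by library size and TMM factors) in shSC and at 39.2 and 37.5 in shCTSL at Day 0, at 369 and 391 against 211 and 155 at Day 2, and at 484 and 423 against 257 and 253 at Day 4. The 2 shCTSL Day 2 libraries differed more than any other pair: the SD of their log2 ratio over genes was 0.604, against 0.178 to 0.269 in the other 5 groups. Because all groups share the estimate of the spread, this pair enters the SE and p of every contrast, also of those that do not use it. In replicate 1 of that group short genes were high relative to long genes, and the ribosomal transcript Rn45s took 3.43% of the counts, against 0.17 to 1.43% elsewhere. The stem cell genes in the sample check (Nanog, Pou5f1, Sox2, Zfp42, Klf4, Esrrb, Dppa5a and Tdgf1) were all present and summed to 5990 to 6432 CPM at Day 0 and to 347 to 419 CPM at Day 4, with all 8 lower at Day 2 and Day 4 than at Day 0 in both lines.

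The contractile transcripts summed to 354 and 355 CPM in the shSC mESCs and to 368 and 389 CPM in the shCTSL mESCs. By Day 4 the sum was 657 to 812 CPM in shSC and 1089 to 1223 CPM in shCTSL. At Day 2 the shSC libraries held 378 to 390 CPM and the shCTSL libraries 438 and 634 CPM. Most of each sum came from Tpm1 and Cnn2. In shSC their means were 158 and 123 CPM at Day 0 and 468 and 109 CPM at Day 4. In shCTSL at Day 4 they were 591 and 180 CPM. In bulk RNA, more cells that express a gene and more RNA per cell cannot be told apart.

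**Figure D1:**
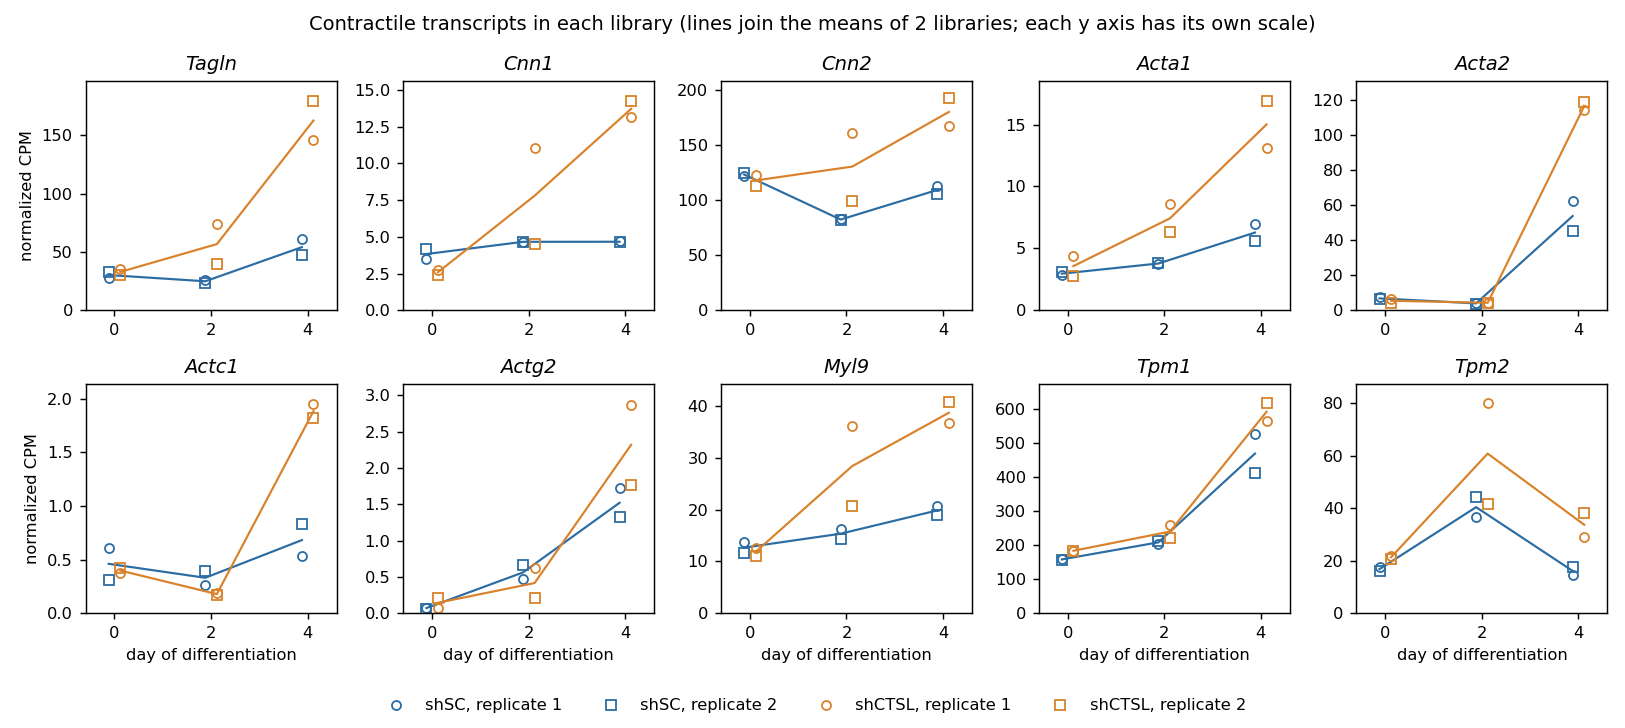
Normalized CPM (y axis, each panel with its own scale) of the 10 contractile transcripts on Days 0, 2 and 4 of differentiation (x axis), with blue for shSC and orange for shCTSL, circles for replicate 1, squares for replicate 2 and lines through the means of 2 libraries. On Day 4, the day used to choose the genes, both shCTSL libraries lie above both shSC libraries in every panel, as in 30% of all genes. At Day 2 the shCTSL replicates are far apart for Tagln, Cnn1, Cnn2, Myl9 and Tpm2.

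In the control line, Tpm2 and Actg2 rose and Acta2 fell from Day 0 to Day 2, so 3 of the 10 genes were called (adjusted p under 0.05 in edgeR and at least 1.5-fold), against 54.6% of all genes tested. The 2 called higher compare with 29.3% of all genes called higher, and the 1 called lower with 25.3%. In the knockdown line Acta1, Cnn1, Myl9, Tagln and Tpm2 rose and none of the 10 genes fell, so 5 of 10 were called, against 55.5% of all genes, of which 30.9% were called higher and 24.6% lower. The shSC count lay below the share of all genes that changed and the shCTSL count close to it. By direction, the 5 called higher in shCTSL compare with 30.9% of all genes. With 10 genes, these counts were not tested against the shares. The median log2 change of the 10 genes was 0.28 in shSC and 0.90 in shCTSL, against 0.02 and 0.08 over all genes. The difference between the lines in this step was called by edgeR for none of the 10 genes and for 0% of all genes, with 4 of the 10 and 1716 of all genes at an unadjusted p under 0.05. DESeq2 called none of the 10 and 24 of all genes.

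The calponin family binds actin filaments. Tagln (transgelin, SM22 alpha) is an early marker of smooth muscle, Cnn1 (calponin 1) is the smooth muscle form that inhibits the myosin ATPase, and Cnn2 (calponin 2) is expressed widely outside muscle. Tagln stood at 27.8 and 32.7 CPM in shSC and 35.6 and 30.2 CPM in shCTSL at Day 0. It stood at 26.3 and 23.5 CPM in shSC and 73.8 and 39.8 CPM in shCTSL at Day 2, and at 61.2 and 47.1 CPM in shSC and 146 and 179 CPM in shCTSL at Day 4. The lines overlapped at Day 0 and were separate at Day 2 and Day 4, with the lowest shCTSL library at Day 4 well above the highest shSC library. Tagln rose from Day 0 to Day 2 in shCTSL (log2 change 0.78, SE 0.26, edgeR adjusted p = 0.0238), while the change in shSC was -0.28 (SE 0.26, adjusted p = 0.367). Without replicate 1 of shCTSL Day 2 the rise in shCTSL was 0.31 and was no longer called (adjusted p = 0.10). It also missed the threshold with either shCTSL Day 0 library left out (adjusted p = 0.0558 and 0.130) and in a fit of only the libraries compared (adjusted p = 0.106).

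Cnn1 was expressed far lower. It stood at 3.51 and 4.15 CPM in shSC and 2.76 and 2.42 CPM in shCTSL at Day 0, and stayed at 4.68 and 4.64 CPM at Day 2 and 4.68 and 4.65 CPM at Day 4 in shSC. The shCTSL libraries held 11.1 and 4.51 CPM at Day 2 and 13.2 and 14.3 CPM at Day 4. Control cells thus kept an almost level Cnn1 signal, and the shCTSL Day 2 replicates fell on either side of it. The rise from Day 0 to Day 2 in shCTSL was called (log2 change 1.55, SE 0.38, edgeR adjusted p = 0.00457), and the change in shSC was 0.28 (SE 0.35, adjusted p = 0.506). The shCTSL rise was 0.83 without replicate 1 of Day 2 and 2.08 without replicate 2, and both were still called.

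Cnn2 was the most abundant of the 3 in undifferentiated cells, with 122 and 125 CPM in shSC and 122 and 113 CPM in shCTSL. In shSC it stood at 83.0 and 81.7 CPM at Day 2 and at 113 and 105 CPM at Day 4, and in shCTSL at 161 and 99.5 CPM at Day 2 and 167 and 193 CPM at Day 4. Both control libraries were lower at Day 2 than at Day 0, whereas the shCTSL Day 2 replicates lay on either side of the Day 0 libraries. The log2 change from Day 0 to Day 2 was -0.58 (SE 0.19) in shSC, with an edgeR adjusted p of 0.0197 but a size just under the 1.5-fold limit, and 0.14 (SE 0.19, adjusted p = 0.519) in shCTSL. The shCTSL value turned to -0.20 without replicate 1 of Day 2 and was 0.45 without replicate 2. The difference between these changes was 0.73 (SE 0.26) with an adjusted p of 0.394, so it did not pass the test.

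The actins form the thin filament. Acta2 encodes the vascular smooth muscle alpha-actin, Actg2 the enteric smooth muscle gamma-actin, Acta1 the skeletal and Actc1 the cardiac alpha-actin, and the latter are also transcribed in immature smooth muscle and early embryonic cells. Their coding sequences are 82.5 to 86.2% identical to each other, yet only 2.0% of the 50-base windows of the Acta1 transcript and 0.404% of those of Acta2 are shared exactly with another protein-coding transcript (Actb or Actg1 for Acta1, Actg1 for Acta2), and none of those of Actc1 and Actg2.

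Acta2 had the largest difference from Day 2 to Day 4 of the 10 genes. It stood at 7.40 and 6.26 CPM in shSC and 6.49 and 4.42 CPM in shCTSL at Day 0, at 4.15 and 3.76 CPM and at 4.31 and 4.30 CPM at Day 2, and at 62.4 and 45.4 CPM and at 115 and 119 CPM at Day 4. At Day 2 the 4 libraries lay within a narrow range and the shCTSL replicates were nearly equal, unlike those of Tagln, Cnn1 and Myl9. Acta2 fell from Day 0 to Day 2 in shSC by 0.78 on the log2 scale (SE 0.21, edgeR adjusted p = 0.00827), although the adjusted p rose to 0.0608 with shSC Day 0 replicate 1 left out and to 0.0514 with shSC Day 2 replicate 2 left out. In shCTSL the change was -0.36 (SE 0.22, adjusted p = 0.179). From Day 2 to Day 4 the log2 difference was 3.76 (SE 0.20) in shSC and 4.76 (SE 0.21) in shCTSL, a 13.6-fold and a 27.1-fold higher level, given as a description.

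Acta1 stood at 2.82 and 3.10 CPM in shSC and 4.40 and 2.74 CPM in shCTSL at Day 0, at 3.75 and 3.81 CPM against 8.55 and 6.30 CPM at Day 2, and at 6.94 and 5.62 CPM against 13.1 and 16.9 CPM at Day 4. The lines overlapped at Day 0 and were separate on both later days. Acta1 rose from Day 0 to Day 2 in shCTSL (log2 change 1.02, SE 0.26, edgeR adjusted p = 0.00606), and the change in shSC was 0.35 (SE 0.26, adjusted p = 0.271). Without shCTSL Day 0 replicate 2 the rise in shCTSL was 0.74 with an adjusted p of 0.0526, and in a fit of only the libraries compared the adjusted p was 0.0577.

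Actc1 and Actg2 were near the limit of detection. Actc1 held 3 to 9 reads in each library at Days 0 and 2, 12 and 12 reads in shSC at Day 4 and 36 and 37 reads in shCTSL at Day 4, or 0.530 and 0.832 against 1.95 and 1.82 CPM. Actg2 held 1 or 2 reads in each Day 0 library, 5 to 15 at Day 2, and 39 and 19 (shSC) or 53 and 36 (shCTSL) at Day 4. Actg2 rose from Day 0 to Day 2 in shSC (edgeR adjusted p = 0.0118), from 2 to 29 reads, a depth-corrected ratio of 8.01 (95% interval from counting, 2.03 to 69.3). With either shSC Day 0 library left out it missed the threshold (adjusted p = 0.0515 and 0.0733). In shCTSL the reads went from 3 to 15, a ratio of 2.88 (0.815 to 15.5), which did not pass the test (adjusted p = 0.155) but did so without shCTSL Day 2 replicate 2 (adjusted p = 0.0365).

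Per exonic length, these 4 muscle actins made up 0.346 and 0.317% of the transcripts of 6 actin genes (with the non-muscle Actb and Actg1) in shSC mESCs and 0.385 and 0.275% in shCTSL mESCs. The share was 0.694 and 0.677% in shSC and 0.975 and 0.839% in shCTSL at Day 2, and 6.13 and 4.47% in shSC and 9.24 and 9.23% in shCTSL at Day 4. Acta2 made up 82.7 to 84.9% of the muscle actins at Day 4 in all 4 libraries, and 27.4 to 43.3% at Day 2, when Acta1 and Actg2 took more. Actb fell over the same time (log2 change from Day 0 to Day 2 of -1.26 in shSC and -1.04 in shCTSL, SE 0.09 each, edgeR adjusted p = 1.9e-06 and 6.3e-06), so the share moved with the denominator as well. Actg1 stood at 32.0 to 66.9 CPM, against 1660 to 4981 CPM for Actb. Reads of low mapping quality had been removed before counting, and how much of Actg1 that removed was not tested.

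**Figure D2:**
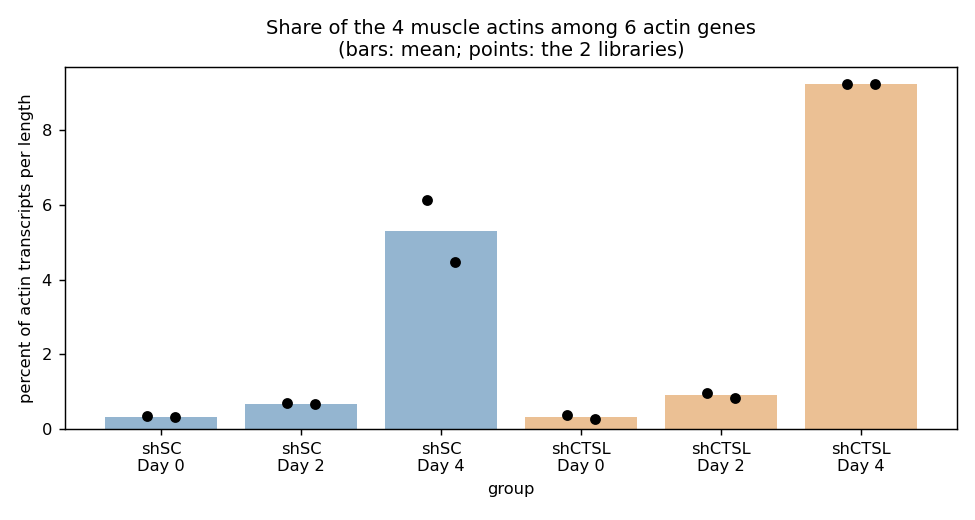
Percent of the transcripts of 6 actin genes, per exonic length, that came from the 4 muscle actins (y axis) in each group (x axis), with bars for the mean and points for the 2 libraries. The share stays under 1% at Days 0 and 2 and reaches 4.47 and 6.13% in shSC and 9.23 and 9.24% in shCTSL at Day 4.

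Myl9, the regulatory light chain of smooth muscle and non-muscle myosin II whose phosphorylation starts contraction, stood at 13.6 and 11.6 CPM in shSC and 12.6 and 11.1 CPM in shCTSL at Day 0. It stood at 16.3 and 14.4 CPM in shSC and 36.1 and 20.7 CPM in shCTSL at Day 2, and at 20.7 and 18.9 CPM in shSC and 36.7 and 40.7 CPM in shCTSL at Day 4. The lines did not overlap at Day 2 or Day 4, and replicate 1 of shCTSL Day 2 was close to the lower shCTSL Day 4 library. Myl9 rose from Day 0 to Day 2 in shCTSL (log2 change 1.25, SE 0.24, edgeR adjusted p = 0.000998), and the change in shSC was 0.28 (SE 0.23, adjusted p = 0.310).

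Tropomyosins lie along the actin filament and gate the access of myosin. Tpm1 was the most abundant of the 10 by CPM, with 160 and 155 CPM in shSC and 183 and 183 CPM in shCTSL at Day 0, 202 and 213 CPM against 258 and 221 CPM at Day 2, and 526 and 411 CPM against 565 and 618 CPM at Day 4. The lines did not overlap on any day, by small margins, and both lines took nearly the same course. From Day 0 to Day 2 shSC had a log2 change of 0.40 (SE 0.13, edgeR adjusted p = 0.0219) and shCTSL of 0.39 (SE 0.13, adjusted p = 0.0245), both under the 1.5-fold limit.

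Tpm2 peaked at Day 2. It stood at 17.4 and 16.1 CPM in shSC and 21.8 and 20.8 CPM in shCTSL at Day 0, at 36.5 and 44.2 CPM against 79.9 and 41.6 CPM at Day 2, and at 14.6 and 17.5 CPM against 29.1 and 38.1 CPM at Day 4. It was the only member called in both lines from Day 0 to Day 2, with a log2 rise in shSC of 1.27 (SE 0.27, edgeR adjusted p = 0.00225) and in shCTSL of 1.51 (SE 0.27, adjusted p = 0.000768). From Day 2 to Day 4 its log2 difference was -1.33 (SE 0.27) in shSC and -0.85 (SE 0.26) in shCTSL, and it was the only member whose Day 4 libraries lay below its Day 2 libraries in either line.

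**Figure D3:**
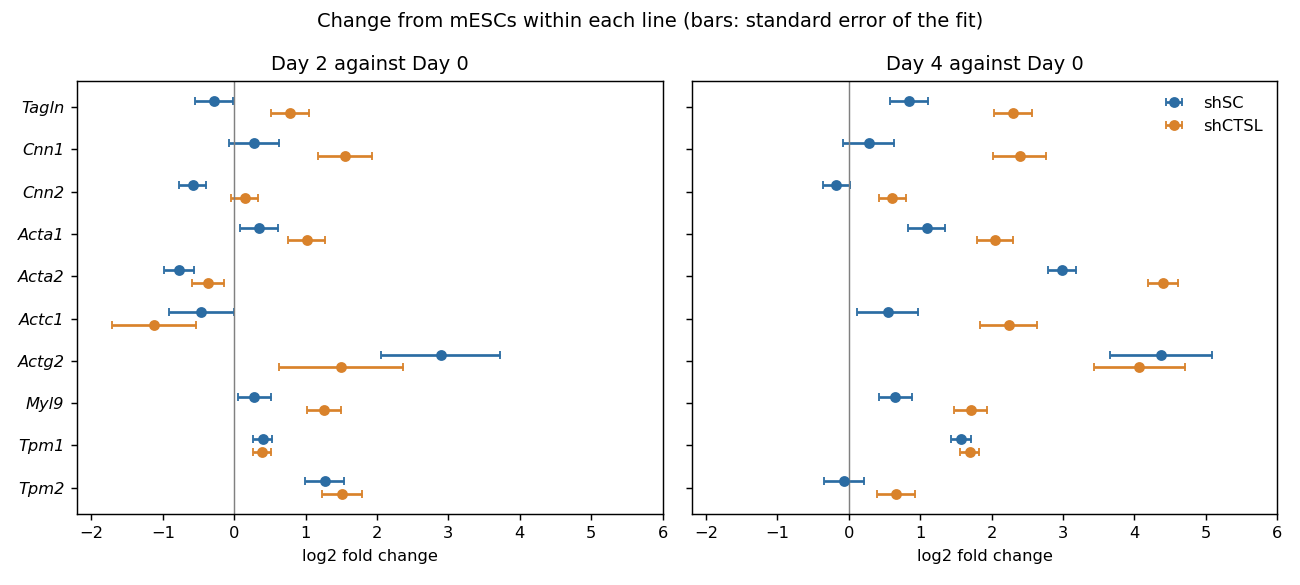
Log2 fold change of the 10 genes (y axis) from Day 0 to Day 2 (left) and from Day 0 to Day 4 (right) in shSC (blue) and shCTSL (orange), with bars for the standard error of the fit. The lines have nearly equal values for Tpm1 in both panels, and at Day 4 against Day 0 shCTSL is higher for 9 of the 10 genes, with Actg2 the exception (4.37 in shSC and 4.07 in shCTSL).

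From Day 0 to Day 4 the largest log2 differences belonged to the smooth muscle actins: Acta2 with 2.99 (SE 0.20) in shSC and 4.40 (SE 0.21) in shCTSL, and Actg2 with 4.37 (SE 0.72) and 4.07 (SE 0.64), which rest on 2 and 3 reads at Day 0. The depth-corrected ratios of Actg2 were 22.9 (6.06 to 194) in shSC and 17.5 (5.8 to 86.5) in shCTSL. In shSC, Cnn1, Cnn2 and Tpm2 were near their Day 0 levels at Day 4, with differences of 0.28 (SE 0.36), -0.17 (SE 0.19) and -0.06 (SE 0.28). The same genes stood at 2.39 (SE 0.37), 0.61 (SE 0.19) and 0.66 (SE 0.27) above Day 0 in shCTSL. Over the 10 genes the median difference from Day 0 was 0.75 in shSC and 2.14 in shCTSL, against 0.03 and 0.06 over all genes.

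Between the lines, no member was called at Day 0, where 0.0386% of all genes were called, and none had an unadjusted p under 0.05, against 1127 of all genes. DESeq2 called none of them and 48 of all genes. In an edgeR fit of only the Day 0 libraries, which leaves out the spread of the other days, no member and 269 of all genes were called, against 6 in the main fit. The log2 differences of shCTSL against shSC ran from -0.56 (Cnn1, SE 0.40) to 0.88 (Actg2, SE 1.28, on 3 against 2 reads), with edgeR adjusted p from 0.823 to 0.990. Tpm1 and Tpm2 were higher in both shCTSL libraries than in both shSC libraries, as were 22.7% of all genes, and Cnn1 was lower, as were 28.6%.

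At Day 2 no member was called by edgeR between the lines, where 0.0644% of all genes were called. Of the 10 genes, 5 had an unadjusted p under 0.05, as did 3014 of the 15532 genes tested. DESeq2 called 3 members (Tagln, Acta1 and Myl9) and 125 of all genes. The log2 difference was 1.18 for Tagln (SE 0.26), 0.96 for Acta1 (SE 0.24), 0.88 for Myl9 (SE 0.22), 0.72 for Cnn1 (SE 0.32), 0.66 for Cnn2 (SE 0.19) and 0.59 for Tpm2 (SE 0.26). It was near zero for Tpm1 (0.20, SE 0.13) and Acta2 (0.12, SE 0.21), and negative for Actg2 (-0.51, SE 0.53) and Actc1 (-0.85, SE 0.52). The adjusted p ran from 0.204 to 0.748. In 6 genes (Tagln, Cnn2, Acta1, Acta2, Myl9 and Tpm1) both shCTSL libraries lay above both shSC libraries, as in 22.7% of all genes, and in Actc1 both lay below, as in 22.7%.

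The 2 shCTSL Day 2 libraries decided these values. With either left out, the group holds a single library, which the fit assumes to vary like the other groups, so these calls do not measure the spread among shCTSL Day 2 cells. Without replicate 2 the fit called 6 members at Day 2 (Tagln, Cnn1, Cnn2, Acta1, Myl9 and Tpm2) and 5012 of all genes, and without replicate 1 it called Tagln alone (log2 difference 0.68, SE 0.15, adjusted p = 0.0408) and 96 of all genes. The Tagln difference was 1.56 (SE 0.15) with replicate 1 as the only shCTSL Day 2 library. Cnn1 went from 1.24 without replicate 2 to -0.039 without replicate 1, and Tpm2 from 0.99 to 0.056. In the line difference of the change from Day 0 to Day 2, the fit called 5 members and 4124 of all genes without replicate 2 (the members were Tagln, Cnn1, Cnn2, Myl9 and Tpm2), and none of the members and 301 of all genes without replicate 1.

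**Figure D4:**
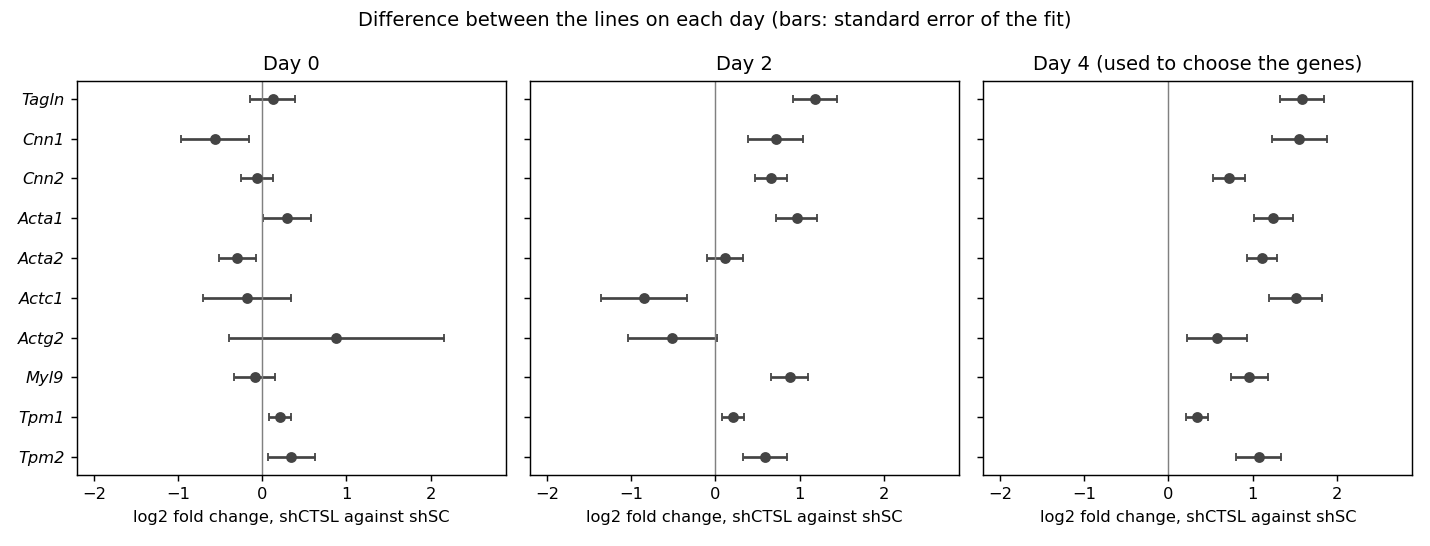
Log2 fold change of shCTSL against shSC for the 10 genes (y axis) at Day 0, Day 2 and Day 4, with bars for the standard error of the fit. The values scatter around 0 at Day 0, 8 of the 10 are above 0 at Day 2, and at Day 4, the day used to choose the genes, all lie between 0.34 and 1.58.

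At Day 4, the day by which the genes were chosen, the log2 differences of shCTSL against shSC were 1.58 for Tagln (SE 0.26), 1.55 for Cnn1 (SE 0.33), 1.51 for Actc1 (SE 0.32), 1.25 for Acta1 (SE 0.23), 1.11 for Acta2 (SE 0.18) and 1.07 for Tpm2 (SE 0.27). The other values were 0.96 for Myl9 (SE 0.22), 0.72 for Cnn2 (SE 0.19), 0.58 for Actg2 (SE 0.36) and 0.34 for Tpm1 (SE 0.13). Tagln, Cnn1 and the 3 alpha-actins thus stood at the upper end, and Cnn2, Actg2 and Tpm1 at the lower end. Of these genes, Actc1 passed the count filter only through its shCTSL Day 4 libraries. All 10 had both shCTSL libraries above both shSC libraries, as did 30% of all genes, and 0.0129% of all genes were called in this contrast. The median of the 10 was 1.09, against 0.00 over all genes (-0.0045). Only the Tpm1 and Actg2 differences were under 1.5-fold (1.26-fold and 1.49-fold).

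The order of the levels at Day 4 depended on the measure. By CPM, Tpm1 led in both lines, with means of 468 in shSC and 591 in shCTSL. Length here is that of all annotated exons of a gene together, 6485 bases for Tpm1. The Tpm1 transcript with the longest coding sequence holds 1824 bases, so the rank of Tpm1 per kilobase rests on the length used. Per kilobase of exonic length, Tpm1 led in shSC with 72.2 ± 12.6 CPM (SD, n = 2), followed by Cnn2 (44.4 ± 2.25), Tagln (34.1 ± 6.29), Acta2 (30.3 ± 6.72) and Myl9 (17.1 ± 1.09). In shCTSL, Tagln stood at 103 ± 14.9, Tpm1 at 91.2 ± 5.82, Cnn2 at 73.2 ± 7.24, Acta2 at 65.6 ± 1.79 and Myl9 at 33.3 ± 2.42. The ranges of mean ± SD overlapped for Tagln and Acta2 in shSC, and for Tagln and Tpm1 and for Cnn2 and Acta2 in shCTSL. Tpm2, Acta1, Cnn1, Actg2 and Actc1 followed in that order in both lines, with overlap of Tpm2 and Acta1 in both lines and of Actg2 and Actc1 in shCTSL. At Day 0 the order was alike in both lines, with Cnn2 at 50.1 ± 0.971 CPM per kilobase in shSC and 47.9 ± 2.69 in shCTSL before Tpm1, Tagln, Myl9, Tpm2, Acta2, Acta1, Cnn1, Actc1 and Actg2.

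The line differences moved with exonic length. Genes under 2000 exonic bases (3108 genes) had a median log2 difference between shCTSL and shSC of 0.22 at Day 4, and genes of 5000 bases or more (4586 genes) of -0.18. At Day 2 the medians were 0.31 and -0.20, and at Day 0 they were 0.02 and -0.08. Tagln, Acta1, Acta2, Actc1, Actg2 and Myl9 are under 2000 bases and Tpm1 is over 5000. These lengths take all annotated exons together, 6485 bases for Tpm1 and 2909 for Tpm2. Their transcripts with the longest coding sequence hold 1824 and 1034 bases, and offsets by transcript length were not tested. With offsets that remove the trend with exonic length in each library, the Day 4 differences were 1.42 for Tagln, 1.46 for Cnn1, 1.35 for Actc1, 1.07 for Acta1, 0.97 for Acta2, 1.01 for Tpm2, 0.76 for Myl9, 0.63 for Cnn2, 0.41 for Actg2 and 0.46 for Tpm1, a median of 0.99. The differences were thus smaller for 9 genes and larger for Tpm1, and all 10 stayed above 0. Because these libraries were used to choose the genes, their sign is no test of the difference.

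**Figure D5:**
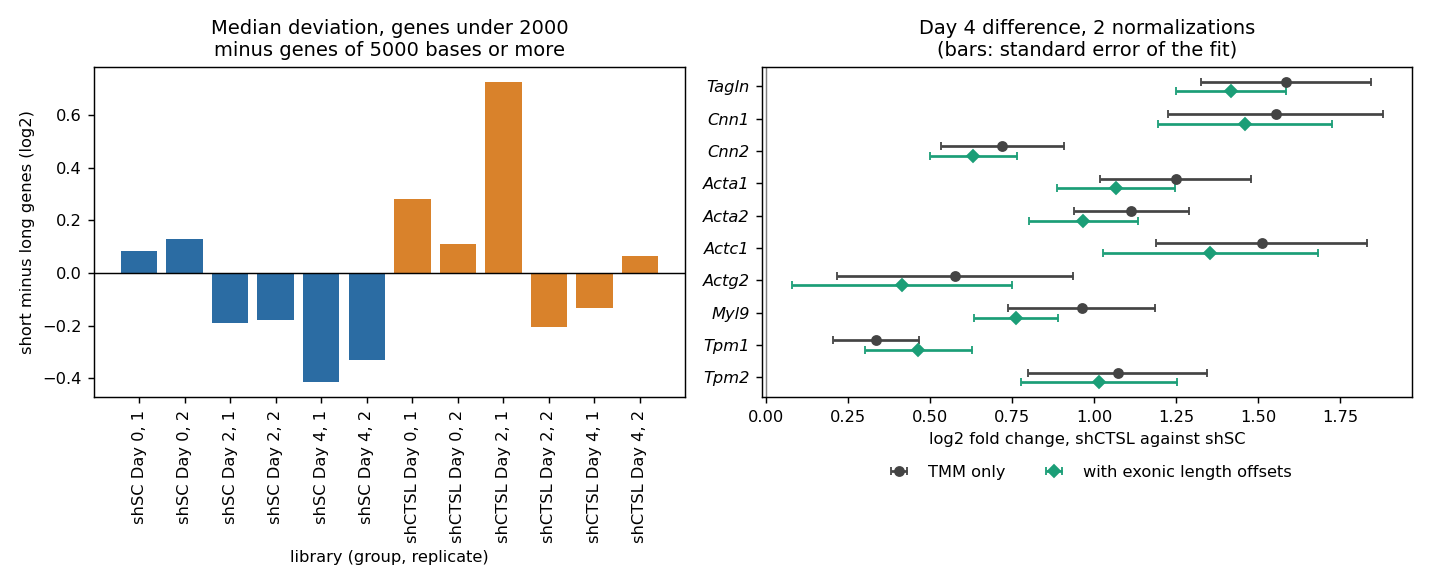
Left, the median log2 deviation from the mean of all libraries of genes under 2000 exonic bases minus that of genes of 5000 bases or more (y axis) in each library (x axis), with blue for shSC and orange for shCTSL. Right, the Day 4 log2 fold change of the 10 genes with TMM normalization (circles) and with exonic length offsets as well (diamonds), with bars for the standard error. Replicate 1 of shCTSL Day 2 stands at 0.727 and the other libraries between -0.415 and 0.28. The Day 4 differences, by which the genes were chosen, remain above 0 after the correction.

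Across the 12 libraries the members followed several courses rather than a single one. The highest Pearson correlations of log2 CPM, given as descriptions over 12 libraries that share their days and lines, were 0.956 between Actg2 and Tpm1, 0.955 between Tagln and Acta1, 0.953 between Acta1 and Myl9 and 0.951 between Cnn1 and Myl9. Tpm2, with its Day 2 peak, stood apart, with values from -0.262 (Acta2) to 0.551 (Cnn1). Among all genes tested, Tagln was most like Tnfrsf12a (r = 0.971) and Acta1, Cnn1 most like Myl9 and Dolk, Acta1 most like Phlda3 and Ctsd, Myl9 most like Mmp23 and Rpain, and Actg2 most like Arf4 and Rragc. Acta2 was most like Sprr1a (r = 0.989) and Ivl (r = 0.984), of which Ivl averaged 0.21 CPM.

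SRF binds CArG boxes with cofactors encoded by Mkl1 and Mkl2 (the MRTF proteins), Myocd (myocardin) and the Elk genes. Srf stood at 86.2 and 92.2 CPM in shSC and 85.3 and 77.7 CPM in shCTSL at Day 0 and at 71.5 and 75.5 CPM against 80.9 and 74.3 CPM at Day 4. None of the 7 genes for SRF and its cofactors (Srf, Mkl1, Mkl2, Myocd, Elk1, Elk3 and Elk4) was called between the lines on any day. Their median log2 difference was -0.13 at Day 0, -0.30 at Day 2 and -0.32 at Day 4. Of all genes, only 0.0386% were called at Day 0, 0.0644% at Day 2 and 0.0129% at Day 4. A short list is likely to hold no call at such shares, so missing calls do not show an unchanged list. This holds for the lists that follow as well. Within the lines, Mkl2 and Elk3 rose from Day 0 to Day 2 in shSC and Elk3 alone in shCTSL. Of all genes, 29.3% rose in this step in shSC and 30.9% in shCTSL. At Day 4 against Day 0 Myocd rose by 3.34 in shSC (SE 0.53, edgeR adjusted p = 0.00026) and in shCTSL by 2.51 (SE 0.56, adjusted p = 0.0027), from 1 to 4 reads in each Day 0 library. In this contrast Mkl2 and Elk3 were also called higher in each line and Mkl1 in shSC, as were 32.1% of all genes in shSC and 32.3% in shCTSL.

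Other genes of smooth muscle were followed as a list that was not chosen by the Day 4 difference, although earlier results of these data were known. Of 12 such genes 11 were tested (Pln, at 0 to 5 reads per library, was not). None of them was called between the lines on any day, against at most 0.0644% of all genes. Their median log2 difference of shCTSL against shSC at Day 4 was 0.21, with a range from -0.74 (Mylk) to 0.98 (Ppp1r14a). From Day 0 to Day 2, 8 of the 11 rose and 1 fell in shSC, and 7 rose in shCTSL. Of all genes, 29.3% rose and 25.3% fell in this step in shSC, and 30.9% rose and 24.6% fell in shCTSL, which is the background for the lists that follow as well. The largest rises in shSC were those of Mylk, the kinase that phosphorylates Myl9 (log2 change 3.86), Itga8 (3.17), Lmod1 (2.51) and Cald1 (1.86). From Day 0 to Day 4, 7 of the 11 rose and 3 fell in shSC, and 7 rose and 2 fell in shCTSL. Of all genes, 32.1% rose and 28.7% fell in shSC, and 32.3% and 27.6% in shCTSL. Smtn, for example, stood at 78.2 and 75.0 CPM at Day 0 and 40.7 and 39.2 CPM at Day 4 in shSC. Des stood at 15.6 and 18.6 CPM and then at 2.83 and 5.55 CPM. The summed level of the list was 492 to 547 CPM in shSC and 601 to 628 CPM in shCTSL at Day 4. Most of it was Cald1, with 304 and 282 CPM in shSC and 348 and 373 CPM in shCTSL. Myh11, the smooth muscle myosin heavy chain that marks mature cells, was low in every library, between 0.22 and 2.17 CPM. In shSC it stood at 0.686 and 0.496 CPM at Day 0 and at 1.59 and 1.25 CPM at Day 4. In shCTSL it stood at 0.224 and 0.632 CPM at Day 0 and at 2.17 and 1.97 CPM at Day 4.

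None of the 18 genes of the non-muscle actin cytoskeleton was called between the lines on any day, against at most 0.0644% of all genes. The median Day 4 difference of the 18 genes was 0.11. From Day 0 to Day 2, 3 of them rose and 8 fell in shSC, and 2 rose and 4 fell in shCTSL. The non-muscle relatives of the members took different courses: Tpm4 rose by 0.77 in shSC and 0.71 in shCTSL, Tpm3 fell by 1.21 and 1.24, and Cnn3 and Myl6 were not called. None of 12 other targets of MRTF and SRF, among them Srf, Vcl and Zyx of the lists above, was called between the lines either. At most 0.0644% of all genes were, and the median Day 4 difference of the 12 targets was 0.11. This list rose in part, with 5 genes higher from Day 0 to Day 2 in each line, and 2 in shSC and 3 in shCTSL lower, among them Ctgf (log2 change -1.80 in shSC and -2.10 in shCTSL).

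Markers of other cells were set beside these values. Of 14 heart sarcomere genes 12 were tested and none was called between the lines on any day, against at most 0.0644% of all genes. The heart genes summed to 28.9 to 39.3 CPM in shSC and 38.8 to 39.3 CPM in shCTSL at Day 4. Tnnt2 and Nppa held 0 to 7 reads in every library. From Day 0 to Day 4, 4 heart genes rose and 4 fell in shSC, and 5 rose and 3 fell in shCTSL, against 32.1% of all genes higher and 28.7% lower in shSC and 32.3% and 27.6% in shCTSL. Mybpc3 went from 2 to 26 reads per library at Days 0 and 2 to 121 to 349 reads at Day 4. Of 8 skeletal muscle genes 2 were tested and none was called between the lines, although 1 rose from Day 0 to Day 2 in each line. The sum never exceeded 3.11 CPM, and Myod1 and Myf6 held 0 to 3 reads per library. Of 12 fibroblast genes 11 were tested and none was called between the lines, against at most 0.0644% of all genes. Of these 11 fibroblast genes, 9 rose and 1 fell from Day 0 to Day 2 in each line. Their sum was 579 to 595 CPM in shSC and 560 to 590 CPM in shCTSL at Day 4, with a median difference of -0.02. Col3a1 was the most abundant of them at Day 4, with 328 to 351 CPM, after 1 to 6 reads in each Day 0 library, and Lum held 0 to 4 reads in every library.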

How the data were processed

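RNA-seq libraries were made from 12 samples, 2 for each of 6 groups that the labels set by line and day. Read counts per RefSeq gene were deposited unnormalized. To make them, the authors used STAR 2.3.0e on mm9, SAMtools 0.1.19 to drop alignments with a mapping quality below 10 and those on the mitochondrial genome or other contigs, and featureCounts 1.6.2; the sources used here do not give its strand setting. They tested expression with DESeq2 1.16.1.

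The deposited counts of all libraries were fitted together in R 4.3.3 with edgeR 4.0.16 (filterByExpr with a minimum count of 10, TMM, quasi-likelihood test, 6 residual degrees of freedom), and p-values were adjusted over 15532 genes by Benjamini-Hochberg. Genes were called at an adjusted p below 0.05 and a change of 1.5-fold or more (0.585 on the log2 scale). DESeq2 1.42.0 was an alternative. Normalized CPM are counts scaled by library totals and TMM factors, with 0.5 added before log2 for correlations. The tests on the 10 genes use no Day 4 contrast, although the Day 4 libraries share in the estimate of the spread. Exonic lengths, of all annotated exons of a gene together, come from GENCODE M1 (20561 genes by symbol, 1708 by synonym, 2226 without). Counting intervals cover counting error only.

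All 10 members and the lists of other genes were chosen with earlier results of these data known. Of the other lists, counts were given by list, and the genes named were the SRF cofactors, relatives of the members and up to 4 called genes with the largest changes. Myh11, Smtn, Des, the extremes of a range and the markers at few reads were named after their values were seen.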

Additional observations from a re-analysis of the deposited data

How the results depend on the processing

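The calls from Day 0 to Day 2 moved with the limit on size and with single libraries. In shSC, 3 members were called (8477 of all genes), 5 with no fold limit (9883) and 1 with a log2 fold change of at least 1.5 (3844), and 1 to 3 when a library was left out (7375 to 8949; 1 member without shSC Day 0 replicate 1). In shCTSL, 5 were called (8627 of all genes), 2 at the stricter limit (3981), 3 in a fit of only the libraries compared (6594), and 3 to 6 when a library was left out (7692 to 9170; 3 members without shCTSL Day 0 replicate 2). Between the lines at Day 2, edgeR called 0 (10 of all genes), DESeq2 3 (125), the fit without a count filter 1 (60), and the fits with a library left out 0 to 6 (0 to 5012). The line difference in the change to Day 2 gave 0, and 0 to 5 with a library left out (0 to 4124 of all genes). A group left with 1 library is assumed to vary like the others. At Day 0 the count was 0 under every alternative run. Single shCTSL Day 2 libraries were also dropped from the other comparisons, a choice made after seeing the data, which left the counts at 3 and 0. A replicate block gave 3, 5, 0, 0 and 0 members called in the 5 comparisons, the same numbers as without it. The replicate numbers did not pair the samples: the correlation of replicate 1 minus replicate 2 between groups ran from -0.465 to 0.257. The Day 4 differences were above 0 in all 12 alternatives for each member, with a median over the members of 0.97 to 1.19. They ran from 0.16 for Tpm1 and 0.19 for Actg2 to 1.81 for Actc1 and 1.78 for Tagln. The same Day 4 libraries were used to choose the genes, so values above 0 were largely fixed in advance and do not test the difference.

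Small differences changed sign when a library was left out. The change to Day 2 ran from -0.86 to 0.057 for Actc1 in shSC and from -0.20 to 0.45 for Cnn2 in shCTSL. The line difference at Day 0 ran from -0.0062 to 0.25 for Tagln, -0.12 to 0.57 for Acta1, -0.61 to 0.33 for Actc1 and -0.20 to 0.021 for Myl9. At Day 2 it ran from -0.039 to 1.24 for Cnn1 and -1.33 to 0.16 for Actg2, and in the difference of the changes from -0.13 to 0.099 for Tpm1 and -0.30 to 0.64 for Tpm2. Exonic length offsets gave -0.064 for Acta2 at Day 2 and 0.11 for Tpm1 in the difference of the changes. The cause of these changes was not tested. Depth limits what can be seen of Actc1 and Actg2, which held 1 to 15 reads in every Day 0 and Day 2 library.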
